A study of Homo sapiens with 20 samples.

Results

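The amino acid transporter families SLC1, SLC3, SLC6, SLC7, SLC36, SLC38 and SLC43 were examined in tumors of OVCAR8, an established cell line from a human ovarian carcinoma. Members were taken by symbol, as every listed gene of these families apart from 1 SLC7 gene that is not reported here, which gave 49 of the 24196 genes measured. The members were 7 genes of SLC1, 2 of SLC3, 15 of SLC6, 8 of SLC7, 3 of SLC36, 11 of SLC38 and 3 of SLC43. OVCAR8 cells that carried luciferase and, in the gluconate experiment, the control guide sgNC had been placed in the fat pad at the ovary of NSG mice aged 6 weeks, a strain that lacks functional T, B and NK cells. Mice of the efficacy arm were given PBS, or sodium gluconate at 1 mg/kg, by i.p. injection each week for 35 days, and the labels list 4 tumors for either group. Sodium gluconate was tested in the study as an agent directed at the CHP1 and TMEM87A complex, and the comparison asks how transcripts of the tumors differ between gluconate and PBS. The measurement was polyA RNA-seq, given as FPKM, the fragments of a gene scaled by its length and by the depth of the library. FPKM therefore allows levels of different genes to be compared per length.

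Cells take up amino acids through carriers that differ in substrate and in what drives them. SLC1 and SLC38 proteins use the sodium gradient to carry glutamate or small neutral amino acids such as glutamine, alanine and serine. SLC7 light chains exchange large neutral or cationic amino acids, and most of them reach the plasma membrane only when joined to a heavy chain of the SLC3 family. SLC36 includes carriers that move amino acids with protons, such as SLC36A1 at the lysosome. SLC43 holds carriers of large neutral amino acids, and SLC6 holds the sodium- and chloride-coupled carriers of neurotransmitters, taurine, creatine and amino acids. In cultured tumor cells, many of these genes are known targets of the transcription factor ATF4, which rises when amino acids run short.

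The 8 libraries were not of equal depth. Between 39325749 and 46551535 fragments lay behind 7 of them, and 3953206 behind PBS replicate 4, which was 9.95 to 11.8 times shallower and listed 15514 genes above 0 where the others listed 19991 to 20251. Differences that it moves are therefore given with and without this library. Epithelial keratins were abundant, with mean FPKM of 845.6 for KRT8 and 694.5 for KRT18, and PAX8, a transcription factor of Müllerian epithelium, had 42.8. MUC16, KRT19, SOX17 and CDH6, which also mark ovarian carcinoma, were below 0.05 FPKM on average. The 12 epithelial markers summed to 1812 to 2417 FPKM in PBS replicates 1 to 3, 1983 in PBS replicate 4 and 1674 to 2186 in gluconate. The markers tested in limma were 8 epithelial, 5 fibroblast, 2 myeloid and 4 of neurons and glia. Of these, KRT7 was the 1 marker with an unadjusted p under 0.05, where 4.62% of all genes tested passed. KRT7 had 219.7 ± 89.1 FPKM in PBS and 344.4 ± 52.6 in gluconate (SD, n = 4). Its unadjusted p in limma was 0.0201, and 0.0269 without PBS replicate 4, and its part in the results below was not tested. Of 9 fibroblast markers, 4 had a mean below 0.5 FPKM, and their summed FPKM was 129.7 to 185.1 in PBS replicates 1 to 3, 45.3 in PBS replicate 4 and 165.1 to 192 in gluconate, nearly all of it COL1A1. The 7 listed endothelial markers each had a mean below 0.5 FPKM, and the myeloid sum, 25.9 to 29 in PBS and 20.8 to 28 in gluconate, was nearly all CD68. The sum of 7 markers of neurons and glia was 7.16 to 10.2 in PBS and 8.5 to 10.6 in gluconate. The values are of human genes, and mouse cells of the host were not measured separately. In bulk tumors, fewer cells of a type and less RNA per cell cannot be told apart.

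A small number of genes carried most of the transporter signal. Of the 49 members, 4 had a mean of at least 50 FPKM, 12 lay between 5 and 50, 12 between 0.5 and 5, and 21 below 0.5. SLC38A2, SLC1A5 and SLC3A2 made up 45.8% of the summed FPKM of all members, with a range of 39.2% in PBS replicate 4 to 49%. The 12 highest members made up 90.5%. By family, SLC38 held 40.7% of the sum, SLC1 16.1%, SLC7 12.2%, SLC3 11.1%, SLC43 9.69%, SLC6 7.87% and SLC36 2.35%. SLC6, the family with the most members, was thus among the smallest in transcripts. The plot of levels by family shows these orders of magnitude library by library.

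**Figure D1:**
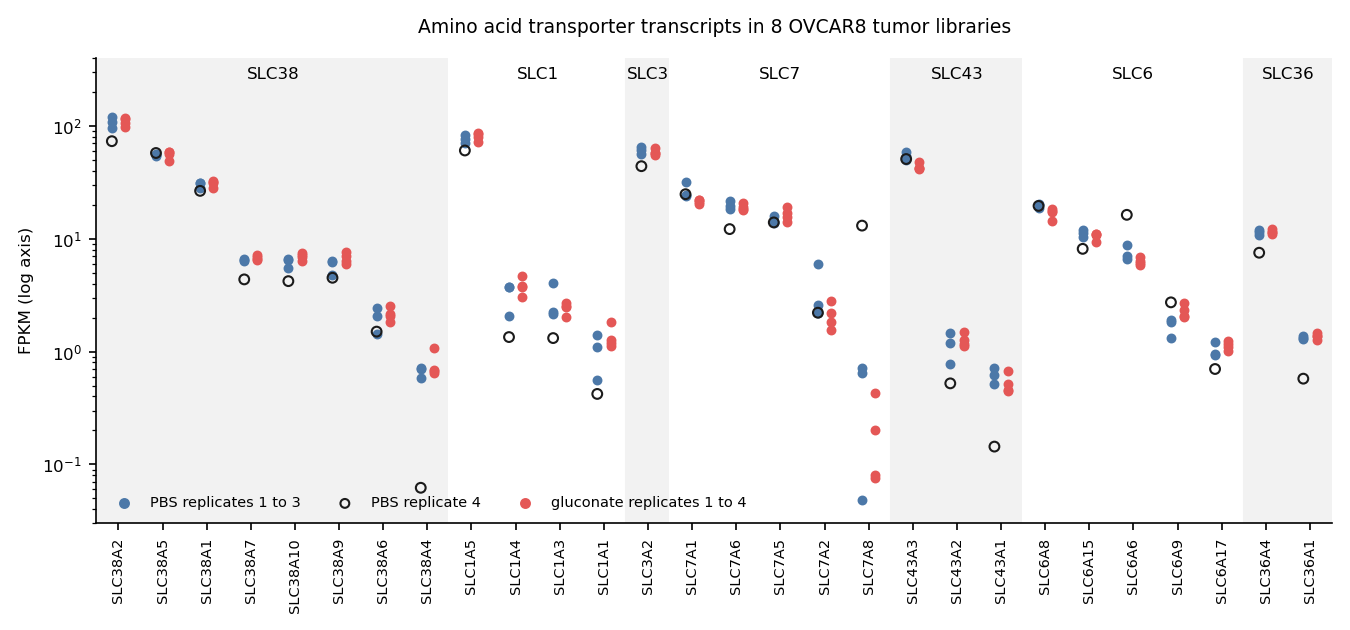
FPKM on a log axis for the 28 members with a mean of at least 0.5 FPKM, grouped by family and ordered by mean within a family. Blue points are PBS replicates 1 to 3, open circles PBS replicate 4 and red points the 4 gluconate libraries. SLC38A2 is highest at a mean of 104.2 FPKM, and SLC7A8 is the member in which PBS replicate 4, at 13.1 FPKM, stands farthest above the rest.

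The sodium-coupled glutamine carriers led the list. SLC38A2, a carrier of alanine and glutamine known to be induced in amino acid starvation, had 119, 96.5, 107 and 73.2 FPKM in PBS replicates 1 to 4 and 107, 98.5, 114 and 117 in gluconate. The groups overlapped, and PBS replicate 4 was the lowest of the 8. SLC1A5, the exchanger of glutamine and other neutral amino acids, had 77.1, 83.9, 71 and 60.6 FPKM in PBS and 72.5, 79.2, 84.8 and 85.7 in gluconate. Here too PBS replicate 4 was lowest and the others interleaved. SLC38A2 was above SLC1A5, and SLC1A5 above SLC3A2, in 8 of 8 libraries, although the ranges of neighbours in this order overlapped across libraries.

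SLC38A5, a carrier of glutamine, serine and glycine, varied least of the 4 highest, with 55.9, 54.5, 55.2 and 57.5 FPKM in PBS and 58.2, 48.9, 55.9 and 59 in gluconate. Its lowest value was gluconate replicate 2, and PBS replicate 4 lay within the range of the others. SLC38A1, a closely related carrier of glutamine, had 31, 28.2, 31.1 and 26.6 FPKM in PBS and 31, 31.7, 32.7 and 28 in gluconate. The groups overlapped, with PBS replicate 4 lowest. Between SLC43A3 and SLC38A1, neighbours in the order of means, the ranges did not overlap, since the lowest SLC43A3 value was 41.8 and the highest SLC38A1 value 32.7. The same held between SLC7A5, lowest at 13.7, and SLC36A4, highest at 12.2, while the other neighbours among the 12 highest members overlapped.

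None of these glutamine carriers had an unadjusted p under 0.05 in the fit with limma, and the intervals say how far a difference could reach. On the log2(FPKM + 0.1) scale, the 95% interval of the difference between gluconate and PBS was -0.15 to 0.47 for SLC38A2, -0.09 to 0.38 for SLC1A5, -0.18 to 0.16 for SLC38A5 and -0.11 to 0.27 for SLC38A1. Without PBS replicate 4 it narrowed to -0.17 to 0.22 for SLC38A2 and -0.12 to 0.24 for SLC1A5. Over the 12 highest members, the half-width of the interval was 0.17 to 0.36, and 0.15 to 0.24 without that library. As a fold, the upper limit was 1.39 for SLC38A2 and 1.31 for SLC1A5.

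The heavy chain was more abundant than the light chains counted here together. SLC3A2, which joins SLC7 light chains, had 60.9, 56.8, 65 and 44 FPKM in PBS and 63.5, 54.7, 58.1 and 58.1 in gluconate. PBS replicate 4 was lowest, and the other 7 values overlapped between groups. Its known light chains SLC7A5, SLC7A6, SLC7A7, SLC7A8 and SLC7A10 summed to 33.1 to 40.9 FPKM, so that SLC3A2 stood at 1.34 to 1.92 times their sum in the 7 deep libraries and at 1.12 times in PBS replicate 4. The light chain left out by the selection is not in this sum. The other heavy chain, SLC3A1, which partners SLC7A9 in kidney, averaged 0.0577 FPKM.

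SLC7A6, which exchanges arginine and lysine for neutral amino acids with sodium, had 18.4, 21.6, 19.6 and 12.2 FPKM in PBS and 18.1, 20.8, 18.3 and 19 in gluconate. Only PBS replicate 4 stood below the others. SLC7A5, the leucine and tryptophan exchanger, had 16, 14, 13.7 and 14 FPKM in PBS and 14, 19, 15.7 and 17.1 in gluconate, a difference of 0.18 ± 0.11 (SE) on the log2 scale with an unadjusted p of 0.123 in limma, and 0.17 with an unadjusted p of 0.151 without PBS replicate 4. Its groups overlapped. SLC7A6 overlaps SLC7A6OS on the opposite strand, and SLC7A5 has near-identical copies elsewhere in the genome, and neither the use of strand nor the treatment of such reads is stated for these values.

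SLC7A8, the light chain that exchanges small and large neutral amino acids, was set apart by 1 library. It had 0.71, 0.645, 0.0484 and 13.1 FPKM in PBS replicates 1 to 4 and 0.0797, 0.426, 0.0763 and 0.201 in gluconate, from 151, 140, 9 and 241 fragments in PBS and 15, 85, 14 and 40 in gluconate. PBS replicate 4 was 65.2 times the median of the other 7 libraries and 18.4 times the highest of them, with a 95% Poisson interval of 11.5 to 14.8 FPKM that covers counting error only. SLC7A8 made up 33.3% of the light chain sum in that tumor and 0.14% to 1.98% in the others. SLC7A8 was the 1 member that reached a mean of 0.5 FPKM only through this library, since its mean over the other 7 was 0.312. No p of it is therefore given, although it stays in the counts of tested members and in the plot of intervals. The log2 difference between gluconate and PBS was -1.97 with all libraries, -0.75 without PBS replicate 4 and -2.91 without PBS replicate 3, the lowest of the PBS libraries. Among the other 7 libraries SLC7A8 spanned 0.0484 to 0.71 FPKM, a coefficient of variation of 90%. SLC7A8 lies at chr14:23125295-23183674 (GRCh38), on the minus strand.

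**Figure D2:**
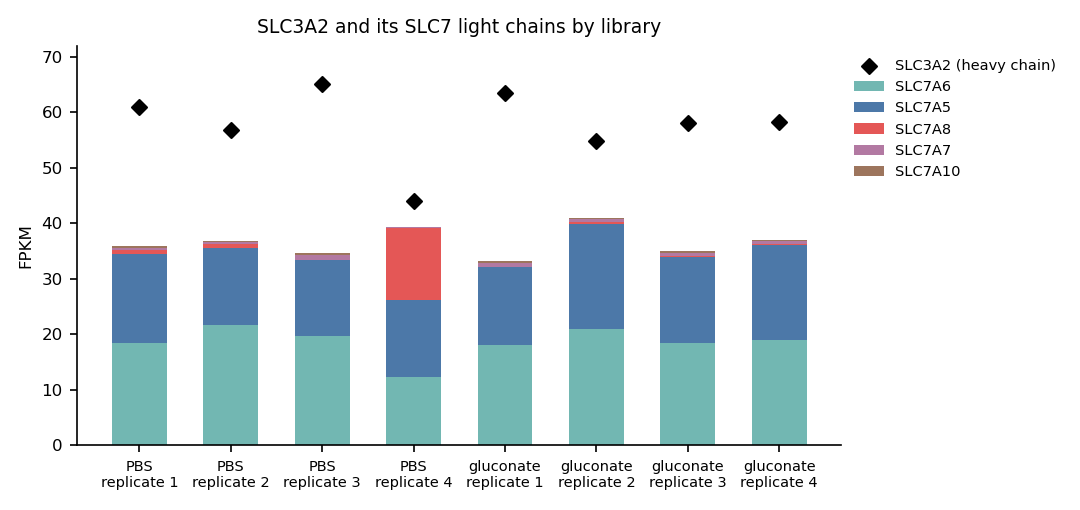
FPKM in each of the 8 libraries, with the 5 SLC7 light chains stacked as bars and the heavy chain SLC3A2 as diamonds. SLC7A8 fills 33.3% of the bar of PBS replicate 4 and at most 1.98% of any other bar.

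The comparison of gluconate with PBS covered the 28 members with a mean of at least 0.5 FPKM, namely 4 of SLC1, 1 of SLC3, 5 of SLC6, 5 of SLC7, 2 of SLC36, 8 of SLC38 and 3 of SLC43. The adjusted p of limma with Benjamini-Hochberg adjustment over the 12486 genes tested was not under 0.05 for any member or any gene, and the smallest was 0.74. At an unadjusted p under 0.05, 3 of 28 members differed, all lower in gluconate, against a background of 4.62% of all genes tested. Without PBS replicate 4, the same 3 members were lower and 1 was higher, against a background of 6.18%. The 3 members were SLC43A3, SLC7A1 and SLC6A8, which belong to different families. They were also the 3 tested members in which every gluconate value lay below every PBS value, an outcome seen in 1.41% of all genes in that direction, while no member had every gluconate value above PBS, against 2.08% of all genes. Without PBS replicate 4, the counts were 3 members lower, against 3.65% of all genes, and 1 member higher, against 2.41%.

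SLC43A3, a carrier of purine nucleobases, had 49.6, 59.1, 54.7 and 50.9 FPKM in PBS and 47.5, 42.3, 42.7 and 41.8 in gluconate. The lowest PBS value, replicate 1, and the highest gluconate value, replicate 1, were 2.12 FPKM apart. The means were 53.5 ± 4.26 (SD, n = 4) and 43.6 ± 2.64 (SD, n = 4), a log2 difference of -0.30 ± 0.08 (SE), or 18.5% lower, with an unadjusted p of 0.00443 and an adjusted p of 0.74 in limma. The two-sided exact permutation p was 0.0286, the smallest that 4 against 4 libraries allow. Without PBS replicate 4 the difference was -0.32 with an unadjusted p of 0.00221 in limma. The gene lies at chr11:57406954-57427580 (GRCh38), on the minus strand.

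SLC7A1, the main carrier of arginine and lysine in many cells, had 24.1, 32, 24.6 and 24.8 FPKM in PBS and 22.1, 20.3, 22.2 and 21.1 in gluconate. PBS replicate 2 stood above the 3 other PBS libraries, which lay within 0.746 FPKM of each other, and the gap between the groups was 1.86 FPKM. The means were 26.4 ± 3.76 (SD, n = 4) and 21.4 ± 0.914 (SD, n = 4), a log2 difference of -0.29 ± 0.10 (SE), or 18.1% lower, with an unadjusted p of 0.0183 and an adjusted p of 0.74 in limma. The exact permutation p was 0.0286, and without PBS replicate 4 the difference was -0.31 with an unadjusted p of 0.0109 in limma. SLC7A1 lies at chr13:29509410-29595688 (GRCh38), on the minus strand. Leaving out gluconate replicate 2 took its unadjusted p in limma to 0.051, and leaving out PBS replicate 2 took its log2 difference to -0.19.

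SLC6A8, which carries creatine, had 18.6, 19.7, 20.1 and 19.5 FPKM in PBS and 17.8, 17.2, 18.3 and 14.4 in gluconate. The gap between the groups was 0.298 FPKM, and gluconate replicate 4 was the lowest. The means were 19.5 ± 0.635 (SD, n = 4) and 16.9 ± 1.76 (SD, n = 4), a log2 difference of -0.21 ± 0.09 (SE), or 13.4% lower, with an unadjusted p of 0.0461 and an adjusted p of 0.74 in limma. The exact permutation p was 0.0286, and without PBS replicate 4 it was 0.0571, with a log2 difference of -0.21 and an unadjusted p of 0.0438 in limma. The unadjusted p stayed under 0.05 in 10 of 17 alternative settings. It was 0.0516 to 0.129 in limma when PBS replicate 1, 2 or 3 or gluconate replicate 1, 2 or 4 was left out, and the log2 difference was -0.13 without gluconate replicate 4. The unadjusted p was also not under 0.05 in the fit with a replicate block. The gene lies at chrX:153688099-153696593 (GRCh38), on the plus strand, overlaps PNCK on the opposite strand and has a near-identical copy elsewhere in the genome.

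**Figure D3:**
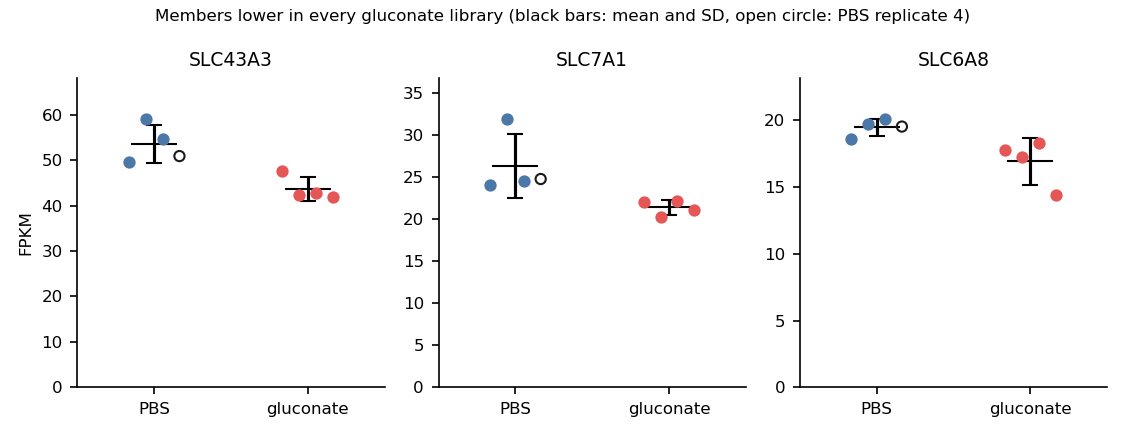
FPKM of SLC43A3, SLC7A1 and SLC6A8 in the PBS and gluconate libraries, with axes that start at 0. Points are libraries (open circle, PBS replicate 4) and black bars the mean and SD, and in each panel the gluconate points lie below the PBS points.

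Of these 3 genes, SLC43A3 and SLC6A8 do not chiefly carry amino acids, the first being a nucleobase carrier and the second a creatine carrier. SLC7A1 was thus the only carrier known for amino acids among them. Its cationic relative SLC7A2 had 2.19, 2.58, 6.01 and 2.21 FPKM in PBS and 1.84, 2.8, 2.22 and 1.54 in gluconate. PBS replicate 3 was high, the groups overlapped, and the log2 difference of -0.50 ± 0.32 (SE) had an unadjusted p of 0.149 in limma, and -0.64 with an unadjusted p of 0.0729 without PBS replicate 4. The interval for SLC7A2, -1.23 to 0.22, includes the SLC7A1 difference.

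The remaining 25 tested members had no unadjusted p under 0.05 with all 8 libraries. Their direction moved with PBS replicate 4. With all libraries, 21 of the 28 tested members had a higher mean log2 value in gluconate, with a median log2 difference of 0.16, against 66.4% of all genes and a median of 0.07. Without PBS replicate 4, 17 of 28 were higher with a median of 0.03, against 48.9% and a median of 0.00 for all genes. PBS replicate 4 was below all other libraries in 18 of the 28, against 58% of all genes tested, and above all others in 3, against 13.7%. The 3 members above were SLC7A8, SLC6A6 and SLC6A9, of which SLC7A8 is among the 28 only through its high value in that library.

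**Figure D4:**
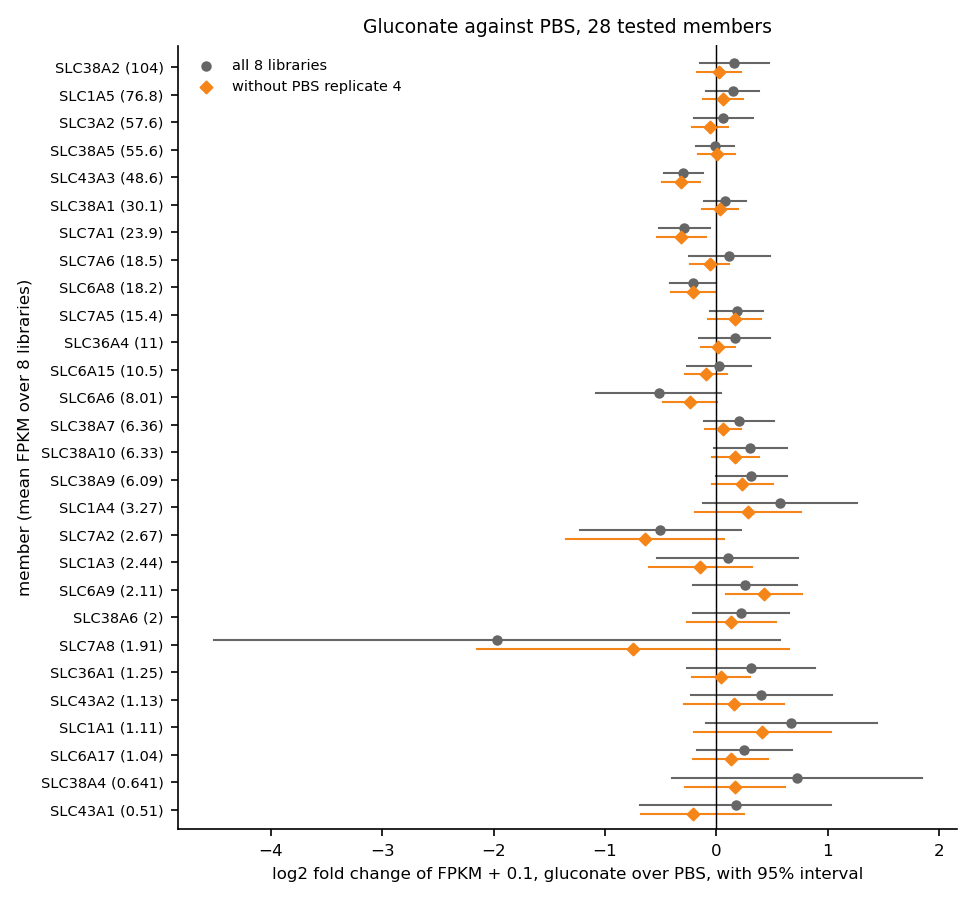
Log2 difference of FPKM + 0.1 between gluconate and PBS with its 95% interval from limma, for the 28 tested members from the highest mean FPKM at the top to the lowest. SLC7A8 is among these members only through PBS replicate 4, so its interval is not read as a test. Grey circles use all 8 libraries and orange diamonds leave out PBS replicate 4, and the intervals of SLC43A3, SLC7A1 and SLC6A8 lie below 0 in both.

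Within SLC38, 7 of 8 tested members were on the higher side in gluconate with all libraries, beside 66.4% of all genes. Without PBS replicate 4, 8 of 8 were, beside 48.9%, although SLC38A5, SLC38A2 and SLC38A1 differed by only 0.0033, 0.0229 and 0.0337. The medians were 0.21 and 0.10, and none had an unadjusted p under 0.05 in limma in either. SLC38A9, the lysosomal carrier that senses arginine for mTORC1, had 6.29, 4.77, 6.2 and 4.51 FPKM in PBS and 5.97, 7.05, 6.3 and 7.65 in gluconate. PBS replicates 2 and 4 were low and gluconate replicates 2 and 4 high, with overlap between the groups. Its log2 difference was 0.31 ± 0.14 (SE) with an unadjusted p of 0.0512 in limma, and 0.23 with an unadjusted p of 0.0896 without PBS replicate 4. SLC38A9 overlaps DDX4 on the opposite strand. The lower SLC38 members were SLC38A7, with a mean of 6.36 FPKM, SLC38A10 with 6.33, SLC38A6 with 2 and SLC38A4 with 0.641.

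Within SLC1, all 4 tested members were on the higher side in gluconate with all libraries, beside 66.4% of all genes. Without PBS replicate 4, which was the lowest library for each, 3 of 4 were, beside 48.9%. The glutamate carriers SLC1A3 and SLC1A1 averaged 2.44 and 1.11 FPKM, and the neutral amino acid carrier SLC1A4 averaged 3.27. SLC1A1 had 1.41, 1.1, 0.563 and 0.421 FPKM in PBS and 1.25, 1.11, 1.19 and 1.82 in gluconate, with only 8 fragments behind the value of PBS replicate 4. Its log2 difference of 0.67 ± 0.34 (SE) had an unadjusted p of 0.0797 in limma, and 0.41 with an unadjusted p of 0.166 without that library. The interval for SLC1A1 ran from 0.935-fold to 2.71-fold.

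Within SLC6, the taurine carrier SLC6A6 had 6.68, 7.02, 8.83 and 16.3 FPKM in PBS and 6.93, 6.12, 5.83 and 6.36 in gluconate. PBS replicate 4 was 2.44 times the median of the other 7 libraries, from 465 fragments, and PBS replicate 1 lay below gluconate replicate 1. The log2 difference was -0.52 ± 0.25 (SE) with an unadjusted p of 0.0653 in limma, and -0.24 with an unadjusted p of 0.0526 without PBS replicate 4. The glycine carrier SLC6A9 had 1.83, 1.89, 1.33 and 2.73 FPKM in PBS and 2.01, 2.34, 2.08 and 2.68 in gluconate. With PBS replicate 4, which was highest, the log2 difference was 0.25 with an unadjusted p of 0.252 in limma. Without it every gluconate value of SLC6A9 lay above every PBS value, and the difference was 0.42 with an unadjusted p of 0.0204 and an adjusted p of 0.802 in limma. SLC6A9 was the 1 member higher in that comparison. SLC6A15, a carrier of branched-chain amino acids and proline known from brain, had 11.3, 10.5, 12 and 8.13 FPKM in PBS and 10.7, 11.1, 11 and 9.33 in gluconate, and its groups overlapped.

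Within SLC36 and SLC43, the groups of the remaining tested members overlapped. SLC36A4, a carrier of proline and tryptophan, had 11.9, 10.9, 11.5 and 7.51 FPKM in PBS and 11.1, 12.2, 11.4 and 11.4 in gluconate. SLC36A1, the proton-coupled carrier of the lysosome, had 1.38, 1.28, 1.32 and 0.575 FPKM in PBS and 1.27, 1.37, 1.45 and 1.37 in gluconate. In both, PBS replicate 4 was low and the other 7 libraries lay close together, with a coefficient of variation of 3.91% for SLC36A4 and 4.78% for SLC36A1. SLC43A2, a carrier of large neutral amino acids, had 1.2, 1.46, 0.782 and 0.522 FPKM in PBS and 1.12, 1.27, 1.16 and 1.5 in gluconate, with overlap, and its relative SLC43A1 averaged 0.51.

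Summed over a family, SLC43 was lower in gluconate in every library, at 51.3, 61.2, 56.2 and 51.5 FPKM in PBS and 49.1, 44.1, 44.4 and 43.9 in gluconate, which is nearly all SLC43A3. The SLC6 sums, 40, 41.1, 44 and 47.7 in PBS and 39.4, 38.8, 39.2 and 34.5 in gluconate, did not overlap either, with the highest in PBS replicate 4, where SLC6A6 was high. The sums of SLC1, SLC3, SLC7, SLC36 and SLC38 overlapped between the groups. The sum of SLC38 was 203.8 ± 24.3 FPKM in PBS and 219.4 ± 11.5 in gluconate (SD, n = 4), and 214.5 ± 14.4 in PBS without replicate 4. All members together summed to 541, 533.8, 535.6 and 453.4 FPKM in PBS and 519, 505.6, 534 and 532.4 in gluconate.

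**Figure D5:**
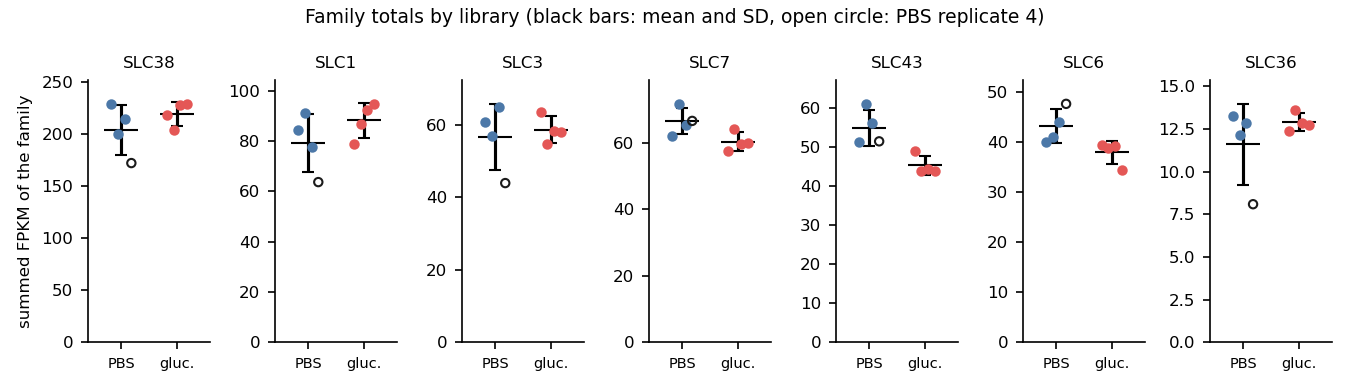
Summed FPKM of the members of each family in the PBS and gluconate libraries, with axes that start at 0. Points are libraries (open circle, PBS replicate 4) and black bars the mean and SD, and the points of SLC43 and SLC6 do not overlap between the groups.

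Tumors of 1 group also differed among themselves. Among the 7 deep libraries, PBS replicate 3 was the lowest in 10 of the 28 tested members, against 25.7% of all genes, and the highest in 7, against 21.4%. It was lowest for SLC1A5, SLC1A4 and SLC1A1 and highest for SLC3A2, SLC6A8 and SLC7A2. Gluconate replicate 1 was highest for no member, against 5.69% of all genes, and lowest for 4 of 28, against 14.8%. Gluconate replicate 4 was highest for 8, against 16.6% of all genes, and lowest for 5, against 19.8%. Each of the other 4 deep libraries was highest for 2 to 4 members and lowest for 1 to 4.

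The start regions of 3 members are shown because they hold TGATGNAA, the core of the element bound by C/EBP and ATF factors, to which ATF4 belongs, and because the genes are the 3 highest members that do. Windows of 300 bases, from 250 before to 50 after the start of 1 transcript per gene, came from RefSeq on GRCh38.p14 and were found for 38 of the 49 members and 24 of the 28 tested. The motif, read on both strands, was present in 4 of these 24, the fourth being SLC1A3, in 1.52% of the 9994 tested genes with a window, and in 3.62% of all 35116 windows. Letters in capitals mark the motif or, for SLC3A2, its reverse complement TTNCATCA. The windows are chr11:62881449-62881748 on the plus strand for SLC3A2, chr12:46266467-46266766 on the minus strand for SLC38A1 and chr13:29595639-29595938 on the minus strand for SLC7A1.
SLC3A2: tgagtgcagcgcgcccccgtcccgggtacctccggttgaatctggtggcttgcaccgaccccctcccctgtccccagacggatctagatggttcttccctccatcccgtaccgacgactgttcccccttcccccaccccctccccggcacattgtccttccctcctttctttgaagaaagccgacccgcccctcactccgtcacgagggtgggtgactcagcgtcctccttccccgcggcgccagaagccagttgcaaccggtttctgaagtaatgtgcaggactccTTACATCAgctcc
SLC38A1: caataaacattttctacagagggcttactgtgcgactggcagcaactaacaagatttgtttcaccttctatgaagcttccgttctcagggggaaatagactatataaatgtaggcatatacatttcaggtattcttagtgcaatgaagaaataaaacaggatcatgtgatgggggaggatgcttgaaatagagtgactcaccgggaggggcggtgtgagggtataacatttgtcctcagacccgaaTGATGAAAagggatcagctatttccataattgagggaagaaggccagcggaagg
SLC7A1: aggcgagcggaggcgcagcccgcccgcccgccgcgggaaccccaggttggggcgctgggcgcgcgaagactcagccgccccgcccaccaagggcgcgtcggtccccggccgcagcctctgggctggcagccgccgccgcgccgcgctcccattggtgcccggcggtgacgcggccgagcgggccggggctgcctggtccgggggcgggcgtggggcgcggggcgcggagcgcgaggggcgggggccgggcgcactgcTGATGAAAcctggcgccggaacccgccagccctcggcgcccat
The start used for SLC7A1 is also the outermost start in GENCODE. Those used for SLC3A2 and SLC38A1 are internal starts, 25597 and 3501 bases inside the GENCODE gene, so the region at the outermost start of these genes was not read here. In SLC3A2 the motif covers bases 38 to 45 after the start, in SLC7A1 bases 8 to 15, and in SLC38A1 it spans the start. A match of letters is a description of the window and not a binding site. The log2 difference between gluconate and PBS was -0.29 for SLC7A1, 0.06 for SLC3A2 and 0.08 for SLC38A1 with all libraries, and -0.31, -0.05 and 0.03 without PBS replicate 4, where that of SLC3A2 changed sign, and whether these differ from each other was not tested. The windows of SLC38A2, SLC1A5 and SLC7A5 hold no such letters, and SLC43A3 had no window in the table.

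Genes of the amino acid response were counted for comparison. Of 26 listed genes, 24 were tested, and 1 was lower and 0 higher at an unadjusted p under 0.05, a share near the 4.62% of all genes tested, with a median log2 difference of 0.08 against 0.07 for all genes. Without PBS replicate 4 the median of the list was -0.005, against 0.00 for all genes. ATF4 had 44.2, 45.3, 43.1 and 34.8 FPKM in PBS and 43.9, 41.5, 44.3 and 47.4 in gluconate. The groups overlapped, with a log2 difference of 0.09 ± 0.10 (SE) and an unadjusted p of 0.381 in limma, and 0.0013 with an unadjusted p of 0.984 without PBS replicate 4. The lower gene was CTH, which makes cysteine from cystathionine, at 2.35, 2.39, 2.7 and 2.33 FPKM in PBS and 1.95, 1.74, 1.62 and 1.91 in gluconate. Its groups did not overlap, 1 gene of 24 against 1.41% of all genes. The log2 difference of -0.42 ± 0.12 (SE) had an unadjusted p of 0.00733 and an adjusted p of 0.74 in limma, with -0.44 without PBS replicate 4. Without that library CTH was lower and VLDLR higher at an unadjusted p under 0.05 in limma, that of VLDLR being 0.0151. That is 1 gene of 24 in either direction, while 6.18% of all genes passed.

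Among enzymes of glutamine, glutamate and aspartate, 15 of 18 were tested, and only GLUD2, a glutamate dehydrogenase near-identical to GLUD1, was lower, with an unadjusted p of 0.0496 in limma and 0.0878 without PBS replicate 4. That is 1 gene of 15, against 4.62% of all genes tested. Among those not tested were ASNS and GLUL. ASNS, which makes asparagine, had 0.0775 to 0.268 FPKM over the 8 libraries. GLUL, which makes glutamine, had at most 1 fragment in each of the 7 deep libraries and 4 fragments in PBS replicate 4. The transcript of glutamine synthesis was thus near 0, beside means of 104.2 FPKM for SLC38A2 and 76.8 for SLC1A5. Other enzymes of the list, also named after their values were seen, were abundant, such as the aspartate aminotransferase GOT2 with a mean of 114.9 FPKM and the glutamate dehydrogenase GLUD1 with 48.1.

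Lysosomal sensing genes, 26 tested of 30 listed, held 0 genes lower and 0 higher at an unadjusted p under 0.05 with or without PBS replicate 4, where all genes gave 4.62% and 6.18%. WDR24, a subunit of a complex upstream of mTORC1, was higher without overlap between groups, 1 gene of 26 against 2.08% of all genes, with a log2 difference of 0.29, and 0.12 without PBS replicate 4. Enzymes of branched-chain and aromatic amino acids, 9 tested of 13, held 0 in either direction. Without PBS replicate 4, DBT was lower and IL4I1, with a mean of 0.72 FPKM, was higher. Their unadjusted p was 0.0159 and 0.028 in limma, which is 1 gene of 9 in either direction beside 6.18% of all genes. Among amino acid carriers of other families, 17 tested of 26, the mitochondrial ornithine carrier SLC25A15 was lower and SFXN3, a relative of the mitochondrial serine carrier, higher, 2 genes of 17 against 4.62% of all genes. SLC25A15 had 3.39, 3.12, 2.91 and 3.84 FPKM in PBS and 2.74, 2.21, 2.47 and 2.16 in gluconate, without overlap. Its log2 difference was -0.45 ± 0.13 (SE) with an unadjusted p of 0.0072 in limma, and -0.38 with an unadjusted p of 0.0074 without PBS replicate 4. SFXN3 had an unadjusted p of 0.0499 in limma, and 0.0581 without PBS replicate 4. CTNS, the cystine carrier of the lysosome, had 7.46, 7.97, 7.91 and 3.6 FPKM in PBS and 8.03, 8.33, 8.19 and 8.4 in gluconate. Its groups did not overlap either, with gluconate higher, at a log2 difference of 0.35 with an unadjusted p of 0.158 in limma, and 0.08 with an unadjusted p of 0.249 without PBS replicate 4. In this list 1 gene of 17 was thus lower without overlap and 1 higher, against 1.41% and 2.08% of all genes.

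The 21 members below 0.5 FPKM were not tested. Of these, 8 lay between 0.05 and 0.5 FPKM on average, among them SLC7A7 at 0.448, SLC6A16 at 0.365, SLC38A3 at 0.288 and SLC7A10 at 0.285. The other 13 lay below 0.05, and 7 of them were SLC6 genes, including the noradrenaline carrier SLC6A2, the dopamine carrier SLC6A3, the serotonin carrier SLC6A4 and the GABA carrier SLC6A11. No library had more than 12 fragments for any of the 13. The glial glutamate carrier SLC1A2 had 13 fragments over all 8 libraries.

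In PBS replicate 4, 17 of the 21 were listed at 0, against 12 of 21 at 0 in at least 1 of the other 7 libraries. SLC38A3 had 0.376, 0.278 and 0.243 FPKM in PBS replicates 1 to 3 and 0.305, 0.454, 0.321 and 0.326 in gluconate, SLC6A16 had 0.264 to 0.491 in these 7 libraries, SLC7A10 0.228 to 0.399, SLC3A1 0.0212 to 0.156 and SLC6A4 0.00346 to 0.0102. A count of 0 in PBS replicate 4 allows up to 0.246 FPKM for SLC38A3, 0.203 for SLC6A16, 0.322 for SLC7A10, 0.15 for SLC3A1 and 0.12 for SLC6A4. For SLC3A1 and SLC6A4 a level like that of most other libraries was therefore not detectable at this depth, and for SLC7A10 several libraries lay within the limit.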

How the data were processed

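Bulk polyA RNA-seq of 8 tumors was used, 4 labelled PBS and 4 labelled gluconate. The 12 cell culture samples with CHP1 or TMEM87A knockout and their controls were not analysed here. The authors deposited FPKM values of 24196 genes by symbol; the submitters' processing notes name GRCh38, and the aligner, counter and annotation are not given in the sources used here. Column headings are C or T and a number. C was read as PBS and T as gluconate from the axis of the study's gluconate volcano plot, and replicate numbers are those of the columns. All columns were used.

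Each gene's FPKM values were whole multiples, within 0.02, of the value of 1 fragment in 100% of values, which gave the depth of each library, 95% Poisson intervals and the FPKM that 3 fragments would give as the limit of a count of 0. These cover counting error only.

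Groups were compared in R 4.3.3 by limma 3.58.1 (two-sided, lmFit and trended eBayes) on log2(FPKM + 0.1) over the 12486 genes with a mean of at least 0.5 FPKM, with Benjamini-Hochberg adjustment over those genes. A fold change on this scale understates the change of low genes. For single genes a two-sided exact permutation test was run on means of log2(FPKM + 0.1), over 70 splits, or 35 without PBS replicate 4. The labels give separate tumors, and how mice relate to libraries beyond that is not stated. The fit was tested on simulated data. Python 3.11.15 with numpy 2.4.6, scipy 1.17.1, pandas 2.3.3 and matplotlib 3.10.9 did the rest. Gene positions came from GENCODE and promoter windows from RefSeq, both on GRCh38.

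Members, gene lists and tests were chosen with earlier results of these data known. Values by library are given for the 12 members with the highest mean, tested members with an unadjusted p under 0.05 or without overlap between groups, up to 5 members at least 4-fold above all other libraries in PBS replicate 4 and up to 5 farthest below them, and SLC1A5, SLC3A2, SLC7A5, SLC7A1, SLC38A1, SLC38A2, SLC38A9, SLC36A1, SLC43A2 and SLC6A6. SLC7A2, SLC1A1 and SLC6A9 were given by library after their values were seen, as was the naming of list genes. Alternatives were pseudocounts of 1 and 0.01, no filter, a mean of at least 1 FPKM, median-ratio scaling, quantile normalization, a replicate block, leaving out each library and limma's voom on the recovered fragments. Some genes enter the counts but are not reported here by name.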

Additional observations from a re-analysis of the deposited data

Results flagged for a closer look

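Libraries far from the other 3 of their group were looked for in the members chosen for values by library and in the 7 family sums, 58 groups of 4 in all. Of these, 9 held such a library. Chance flags about 1 in 20 groups, but some members were chosen because PBS replicate 4 stood far out, SLC7A8 and SLC7A10 among them, and the SLC43 sum is nearly all SLC43A3, so the count is not read against chance. In 3 of the 9 it was PBS replicate 4, the shallow library. SLC7A8 had 13.1 FPKM there against 0.0484 to 0.71 in the other PBS libraries, SLC36A1 had 0.575 against 1.28 to 1.38, and SLC7A10 had 0 against 0.319 to 0.383. In PBS replicate 2, SLC7A1 had 32 FPKM against 24.1 to 24.8, and in PBS replicate 1, SLC7A5 had 16 against 13.7 to 14.

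Among the gluconate libraries, replicate 1 had 47.5 FPKM of SLC43A3 against 41.8 to 42.7, and with it a sum of 49.1 for the SLC43 family against 43.9 to 44.4. Replicate 2 had 0.454 FPKM of SLC38A3 against 0.305 to 0.326. Replicate 4 had a sum of 34.5 FPKM for the SLC6 family against 38.8 to 39.4. SLC43A3 and SLC7A1, 2 of the 3 members lower in gluconate, were thus among those with a library that stood apart, on the side nearest PBS for SLC43A3 and on the side away from gluconate for SLC7A1.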

How the results depend on the processing

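Of 289 values of the 17 tested named members under 17 alternatives, 256 kept direction and side of the unadjusted threshold, 8 lost it and 9 gained it in the same direction, and 16 changed sign, with unadjusted p of 0.269 or more in limma. Among the 9 was SLC7A8 without PBS replicate 3, at a log2 difference of -2.91. This member entered the fit only through its value in PBS replicate 4, so its crossing of the threshold is not read as a result. The log2 difference of SLC3A2, 0.062, became -0.0058 with median-ratio scaling, -0.0009 with voom and -0.0547 with voom on 7 libraries, and was -0.0547 to 0.1329 when a library was left out, negative without PBS replicate 4. That of SLC6A15, 0.0208, became -0.0464 with median-ratio scaling, -0.0249 with quantile normalization, -0.0509 with voom and -0.0944 with voom on 7 libraries, and was -0.0940 to 0.0905 when a library was left out, negative without PBS replicate 4, gluconate replicate 2 or gluconate replicate 3. That of SLC38A5, -0.0116, became 0.0033 with voom on 7 libraries and was -0.0425 to 0.0477 when a library was left out, positive without PBS replicate 4 or gluconate replicate 2. That of SLC7A6, 0.1149, became -0.0600 with voom on 7 libraries and was -0.0598 to 0.2137 when a library was left out, negative without PBS replicate 4. SLC43A3 kept an unadjusted p under 0.05 in limma in 17 of 17, with log2 differences of -0.36 to -0.25, SLC7A1 in 16 and SLC6A8 in 10. The smallest adjusted p over all genes was 0.252 to 0.901, so no setting gave a call after adjustment. The count of 3 members with an unadjusted p under 0.05, beside 4.62% of all genes, became 5 with quantile normalization (SLC38A9 and SLC38A10 higher in addition), beside 6.27%, and 5 with voom on the recovered fragments without PBS replicate 4, beside 6.04%, an alternative chosen after seeing the data. Leaving out a library gave 1 to 7 members, beside 2.14% to 9.72% of all genes. It was 7 without PBS replicate 1 (9.72%), where SLC1A1, SLC1A4, SLC38A9 and SLC38A10 were higher and SLC6A6 replaced SLC6A8, 5 without PBS replicate 2 (6.99%), and 1, SLC43A3, without gluconate replicate 2 (3.16%). The count of genes, 577, became 1028 of 24196 without the filter, where more genes were tested, and 267 to 1214 when a library was left out, lowest without gluconate replicate 4 (289 without gluconate replicate 3) and highest without PBS replicate 1 (873 without PBS replicate 2). Members without overlap between groups numbered 3 to 6 when a library was left out, with 5 without PBS replicate 1 (3.02% of all genes lower and 8.34% higher) and 6 without gluconate replicate 1 (2.11% and 5.13%), where groups are smaller. The members' median log2 difference lay between 0.03 and 0.23. Other causes were not tested. The column numbers do not pair libraries (correlations of same-numbered deviations -0.178, 0.0836, 0.165 and -0.0575). A fit with the replicate block gave 2 members, SLC43A3 and SLC7A1 but not SLC6A8, and 470 genes, or 3.76%. Depth limits PBS replicate 4, where members near 1 FPKM rest on few fragments.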
